A study of Mus musculus with 8 samples.

Results

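Gdf10 high FAPs were the fibro/adipogenic progenitors (FAPs) of mouse hindlimb muscle whose single-cell transcriptome held at least 3 unique molecular identifiers (UMIs, each 1 counted transcript) of Gdf10. The members were selected on that count among cells with at least 500 genes, at most 10% of UMIs from mitochondrial genes and at least 1 UMI of Pdgfra. There were 221 such cells, 129 wild type and 92 dysferlin knockout, of 2968 Pdgfra-positive cells that passed the filter and of 3797 cells deposited in all. The comparison class was the 2369 cells with 0 Gdf10 UMIs in the same filter, 1198 wild type and 1171 knockout. The remaining 206 wild type and 172 knockout cells held 1 or 2 Gdf10 UMIs and entered neither class.

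Gdf10 encodes growth differentiation factor 10, also called BMP3B, a secreted ligand of the TGF-beta superfamily that is distant in sequence from the classical BMPs. FAPs are the PDGFRα-positive stromal cells between muscle fibres. They deposit matrix, feed satellite cells with trophic signals, and give rise to fibroblasts and adipocytes in diseased muscle, and their Gdf10 is known as a factor that maintains muscle fibres and their innervation. The gene lies on the plus strand at chr14:33923587-33937983 (mm10, GENCODE M21).

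The cells were taken from hindlimb muscles of female mice aged 8 months and were sorted by flow cytometry as live PDGFRα-positive singlets before 10x Genomics 3′ version 3 libraries were made. The wild type mice were C57BL/6. The others lacked dysferlin, a membrane repair protein whose loss causes a muscular dystrophy, and the strain is written BLA/J in the labels and B6A/J in the protocol text. The labels list 4 samples in each group, but each group was deposited as 1 matrix and no file used here ties a cell to a sample. With 1 library a group no value below has a replicate check, and the genotype cannot be told apart from the strain or the library. Intervals are exact 95% intervals and cover counting error only.

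The Gdf10 high cells carried the FAP identity genes. Of 13 such genes measured besides Pdgfra 0 were higher and 0 lower by at least 1.5-fold in both libraries. Over all 5577 genes described below the shares were 1.78% and 2.15%, so that 0 of 13 is near the share of any genes. By library 1 was higher and 2 lower in the wild type, and 0 and 1 in the knockout. The median log2 ratios of high over zero cells were -0.19 and -0.35. Thy1, a surface glycoprotein, stood at 81 against 217 CPM in wild type cells (-1.43 and -0.46) and the transcription factor gene Osr1 at 260.2 against 138 CPM (0.92 and 0.57), the log2 ratio of the wild type first and that of the knockout second here and below. Decorin (Dcn), a small matrix proteoglycan, stood at 16970.5 against 19534 CPM in high and zero wild type cells and at 13942 against 13929 CPM in knockout cells, where CPM is the number of UMIs of a gene in every 1000000 UMIs summed over the class. Pdgfra itself, which the selection required, was at 479.5 against 494 CPM and at 496 against 493 CPM. A lower depth of the Gdf10 high cells was seen in the knockout only: their median was 11092 UMIs against 12712 in Gdf10 zero cells, and in the wild type it was 9420 against 9180. Median mitochondrial shares were 3.16% against 3.24% in the wild type library and 2.71% against 2.84% in the knockout. The 2 libraries had 13 cell barcodes in common, and none of them belonged to a Gdf10 high cell.

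Markers of other cells were summed by list, and the sums in the members ran from 0 CPM for B cell and neutrophil markers to 306 CPM for tenocyte markers. The 10 endothelial markers summed to 25.2 CPM in wild type Gdf10 high cells and 31.0 CPM in Gdf10 zero cells, and to 22.6 and 29.3 CPM in the knockout. The 11 macrophage and monocyte markers summed to 19.7 and 11.7 CPM in the wild type library and to 20.02 and 92.6 CPM in the knockout, with Csf1r and C1qa at 0 in all Gdf10 high cells. Of the B cell and neutrophil markers none had a UMI in a Gdf10 high cell, and of the adipocyte markers 5 of 6, Adipoq and Plin1 among them, had none in either library. Pax7, Myf5 and Myod1, which define myogenic cells, and Sox10, which defines Schwann cells, were also at 0. The 11 myogenic markers summed to 72.3 against 54.3 CPM in the wild type library and to 102 against 99.8 CPM in the knockout, with Vcam1, an adhesion molecule and the gene of the list above the level minimum, at 45.6 against 26.1 CPM and 74 against 73.5 CPM. Glial markers summed to 11.8 against 11.4 CPM and 10.4 against 11.8 CPM, and T and NK cell markers were under 1 CPM in every class. The 6 tenocyte markers summed to 230.3 against 672 CPM in the wild type library and to 306 against 1073 CPM in the knockout, with Scx and Kera at 0 in the members. Mural cell markers summed to 126 against 154 CPM and to 151 against 168 CPM, and perineurial ones to 88.8 against 74.8 CPM and 95.7 against 62.6 CPM. Lymphatic endothelial markers were at 22.8 against 9.6 CPM in the wild type library and 2.61 against 41.2 CPM in the other. The part of such cells in the values below was not tested.

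Gdf10 high cells made up 129 of 1533 Pdgfra-positive cells in the wild type, a share of 8.41% (7.07 to 9.92%), and 92 of 1435 in the knockout, a share of 6.41% (5.20 to 7.81%). The intervals overlap. Because the knockout cells held more UMIs, the share was also computed with every cell thinned to 3000 UMIs, leaving out 114 and 69 shallower cells: it was then 3.12% in the wild type library and 1.78% in the knockout. Cells with any Gdf10 UMI made up 21.9% and 18.4%, or 13.3% and 8.93% after thinning. Endothelial cells, recognised by UMIs of at least 2 of Pecam1, Cdh5, Kdr, Emcn and Cldn5 and none of Pdgfra, served as the background of free RNA: 1 of 33 in the wild type (3.03%, median 3321 UMIs) and 0 of 5 in the knockout (median 3232 UMIs, which allows up to 60.0%) held a Gdf10 UMI, and none held 3.

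Among the members the Gdf10 count was skewed. Its median was 5 UMIs in both libraries, its maximum 27 in the wild type library and 24 in the knockout, and 22 and 12 cells held at least 10. The members held 74.95% of all Gdf10 UMIs of the Pdgfra-positive cells in the wild type library and 72.0% in the knockout. Over all Pdgfra-positive cells Gdf10 stood at 76.1 CPM in the wild type library and 41.8 CPM in the knockout, a log2 ratio of knockout over wild type of -0.87 (-0.999 to -0.73). Within the Gdf10 high cells, where the selection sets a minimum, it was 647 and 502 CPM (-0.37, -0.52 to -0.21). Just inside the threshold stood 36 wild type and 21 knockout cells with 3 UMIs, and just outside it 69 and 52 cells with 2 UMIs.

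**Figure D1:**
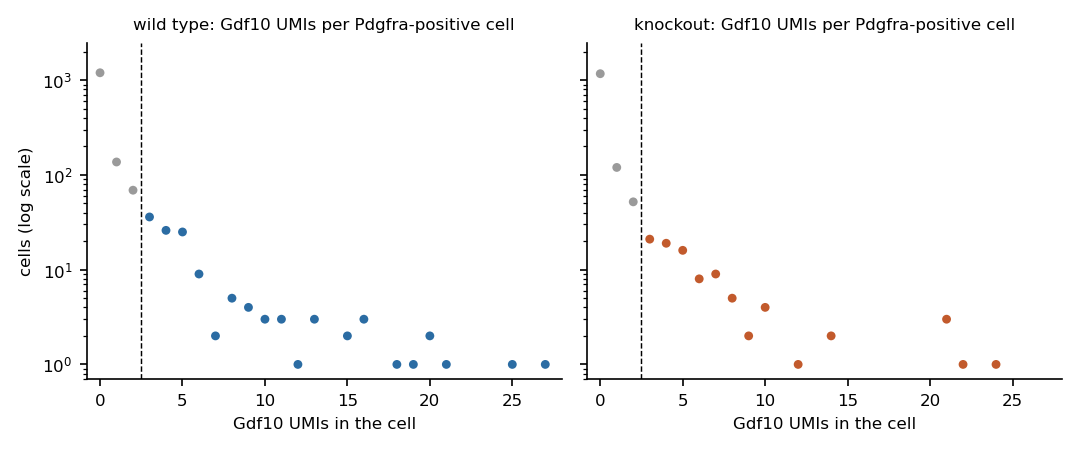
Gdf10 UMIs per Pdgfra-positive cell that passed the filter (x axis) against the number of such cells (y axis, log scale), wild type on the left and dysferlin knockout on the right, with 1 point per count that occurred. Coloured points right of the dashed line are the Gdf10 high cells, 129 and 92 in number, and the tails run to 27 and 24 UMIs with no gap at the threshold.

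Genes were described where the mean of the classes compared was at least 20 CPM in each library, 5577 genes without Gdf10 and Pdgfra, and a gene is called higher or lower at a ratio of at least 2-fold. Since the classes were selected on Gdf10 in the same cells, all contrasts of Gdf10 high over Gdf10 zero cells are descriptions, with no test. In the wild type 79 genes (1.42%) were higher and 93 (1.67%) lower in Gdf10 high cells, and in the knockout 69 (1.24%) and 63 (1.13%). In both libraries 44 genes (0.789%) were higher and 33 (0.592%) lower. The 44 make up 55.7% of the wild type and 63.8% of the knockout genes called higher, and the 33 make up 35.5% and 52.4% of those called lower. Most genes differed little: 90.1% in the wild type library and 91.6% in the knockout were within 1.5-fold, around a median log2 ratio of -0.02 and 0.02.

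Among the 15 leading genes on the high side were Fmo2, Angpt4, Ism1, Clu, Vit, Comp, Cpe, Slc1a3, Emb, Gm2564, Pappa, Kitl, Wfdc1 and Cyp26b1. Fmo2, a flavin-containing monooxygenase that oxidises nitrogen and sulfur compounds, was at 218 against 40.7 CPM in the wild type library and at 251 against 16.6 CPM in the knockout. It was higher in the Gdf10 high cells of both libraries, by 2.42 (95% interval 2.20 to 2.64) and 3.91 (95% interval 3.67 to 4.16) on the log2 scale. Cells with at least 1 Fmo2 UMI made up 58.1% of Gdf10 high and 19.8% of Gdf10 zero cells in the wild type library and 58.7% of Gdf10 high and 12.4% of Gdf10 zero cells in the knockout. After thinning to 3000 UMIs these shares were 36.2% and 10.1% in wild type and 40.8% and 4.16% in knockout cells. Fmo2 was not particular to FAPs: of the endothelial cells without Pdgfra described above, 14 of 33 in the wild type library (42.4%) and 1 of 5 in the other held an Fmo2 UMI, at a median depth of 3321 and 3232 UMIs. The part of endothelial RNA in the Fmo2 values was not tested.

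Several of the leading genes encode secreted signals and matrix proteins. Angpt4 and Angpt1, angiopoietins that bind the receptor TEK, were at 51.1 against 10.6 CPM and 96.7 against 27.5 CPM in the wild type library and at 40.0 against 4.81 CPM and 91.4 against 42.5 CPM in the knockout, log2 ratios of 2.27 and 3.06 for Angpt4 and 1.82 and 1.10 for Angpt1. The receptor gene Tek went the other way, at 15.7 against 91.9 CPM and 17.4 against 53.3 CPM (-2.55 and -1.62). Kitl, the ligand of the receptor KIT, was at 112 against 36.5 CPM and 135 against 40.3 CPM (1.61 and 1.74). Ism1, which encodes the secreted protein isthmin, was at 35.4 against 7.05 CPM and 45.3 against 9.95 CPM (2.33 and 2.19). Vit, encoding the matrix protein vitrin, was at 189 against 45.2 CPM and 148 against 16.8 CPM (2.07 and 3.14), and Fbln1, encoding the elastic fibre protein fibulin, was at 582 against 212 CPM and 473 against 112 CPM (1.46 and 2.08).

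Comp and Clu behaved alike in direction but came from part of the members. Comp, cartilage oligomeric matrix protein, was at 194 against 49 CPM in the wild type library and 209.8 against 23.8 CPM in the knockout (1.99 and 3.14). Clu, the extracellular chaperone clusterin, was at 259 against 61.3 CPM and 151 against 26 CPM (2.08 and 2.54). Only 32 of 129 and 35 of 92 members held a Comp UMI, and the tenth of members richest in Comp held 80.2% and 80.1% of its UMIs, so its level rests on few cells. Both genes were seen together in 22 of 129 cells, 17.1%, exact interval 11 to 24.7%, in the wild type library and in 14 of 92 cells, 15.2%, exact interval 8.58 to 24.2%, in the knockout, beside 2.25% and 3.07% of Gdf10 zero cells. After thinning the shares were 9.15% and 0.821% in high and zero wild type cells and 4.69% and 0.71% in the knockout, and 1 of the 33 wild type endothelial cells (3.03%) held both.

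Of the other leading genes, Cpe encodes a carboxypeptidase that trims prohormones and was at 105 against 27.7 CPM and 49.6 against 5.97 CPM (1.93 and 3.05). Pappa, a metalloprotease that cleaves insulin-like growth factor binding proteins, was at 87.3 against 27.5 CPM and 60.1 against 17.7 CPM (1.67 and 1.76). Slc1a3, a glutamate transporter, and Emb, a partner of monocarboxylate transporters, had log2 ratios of 2.23 and 1.91 and of 2.36 and 1.88. Cyp26b1, which degrades retinoic acid, was at 129.7 against 45.4 CPM and 62.7 against 16.1 CPM (1.51 and 1.96). Wfdc1, a secreted protein of stromal cells, had log2 ratios of 1.75 and 1.53, the wild type one turning to -0.27 among cells with no Dpp4 or Pi16 UMI. The predicted gene Gm2564 (2.83 and 1.74) is uncertain in its annotation.

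**Figure D2:**
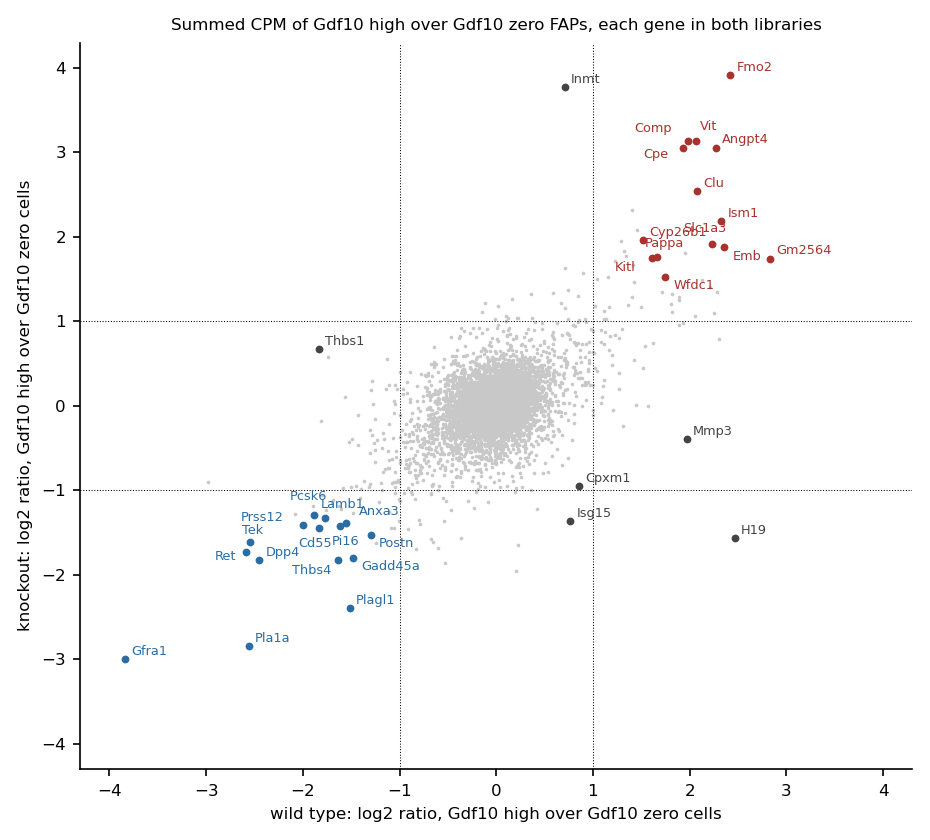
Log2 ratio of CPM, Gdf10 high over Gdf10 zero cells, in the wild type (x axis) against the knockout (y axis) for the 5577 genes described (grey), with dotted lines at 2-fold. Red and blue points are the leading genes named in the text in each direction, dark points are Inmt, Isg15, Cpxm1, Thbs1, H19 and Mmp3, and Hbb-bs, at -6.13 and 1.91, lies outside the axes.

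On the low side stood a receptor pair and the genes of a progenitor state. Gfra1, the GDNF family co-receptor, was at 3.93 against 56.1 CPM in the wild type library and 8.7 against 69.6 CPM in the knockout. Its log2 ratios were -3.84 (95% interval -5.46 to -2.61) and -2.999 (95% interval -4.06 to -2.11), or 14.3-fold and 8-fold lower in Gdf10 high cells. Ret, the receptor kinase that signals with it, was at 9.43 against 56.6 CPM and 13.1 against 43.2 CPM (-2.59 and -1.73). Pla1a, a phosphatidylserine-specific phospholipase, was at 28.3 against 167 CPM and 28.7 against 207 CPM (-2.56 and -2.85). Thbs4, a thrombospondin of tendon and muscle matrix, was at 205 against 639 CPM and 293 against 1036 CPM (-1.64 and -1.82), and it is 1 of the tenocyte markers whose sum was given above. Prss12, Plagl1, Gadd45a, Pcsk6 and Anxa3 completed the list, with log2 ratios between -2.39 and -1.29.

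The Pi16 progenitor list, genes known to mark a fibroblast state from which other fibroblasts can arise, had 0 higher and 10 lower of 17 measured genes past 1.5-fold in both libraries. Over all genes described the same rule found 1.78% higher and 2.15% lower. Like the other lists, this one was chosen with earlier results of these data known, so that its direction is no independent evidence. Its median log2 ratio was -1.26 in the wild type library and -0.67 in the knockout. Dpp4, the surface peptidase CD26, was at 22.8 against 124 CPM and 25.2 against 89.4 CPM (-2.45 and -1.82). Pi16, a peptidase inhibitor, was at 284 against 870.1 CPM and 237 against 637 CPM (-1.62 and -1.43), and Cd55, which shields cells from complement, was at 69.2 against 247 CPM and 76.6 against 208 CPM (-1.84 and -1.44). Efhd1, Creb5 and Sema3c were also lower in both, whereas Has1, a hyaluronan synthase, was at 14.1 against 47.1 CPM in the wild type library and 86.2 against 57.8 CPM in the knockout. Dpp4 and Pi16 were detected together in 8.53% of Gdf10 high and 34% of Gdf10 zero cells in the wild type library and in 9.78% of Gdf10 high and 32.6% of Gdf10 zero cells in the knockout. After thinning these shares were 2.02% and 17.3% in wild type and 1.51% and 12.3% in knockout cells, and of the 33 and 5 endothelial cells none held both genes.

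The leading genes were also compared among cells with no UMI of Dpp4 or Pi16, 53 and 23 of them Gdf10 high. There the log2 ratios were 2.53 and 4.01 for Fmo2 and 1.74 and 4.26 for Vit, and those of Gfra1 were -5.04 and -2.31. Several other leading genes were there under 2-fold in a library: in the wild type Cpe (0.81), Clu (0.94), Pla1a (-0.75), Anxa3 (-0.84), Gadd45a (-0.99) and Cd55 (-0.95), and in the knockout Tek (-0.54), Prss12 (-0.52) and Cd55 (-0.93). That comparison was chosen after the values were seen.

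The interstitial list, genes of FAPs with adipogenic features, was mixed, with 2 higher and 4 lower of 16 past 1.5-fold in both libraries. Over all genes described the shares were 1.78% and 2.15%. Lower were Mme, a membrane peptidase, at 33 against 123 CPM and 58.3 against 133 CPM (-1.90 and -1.19), Hsd11b1, which regenerates active glucocorticoid, at 55 against 167 CPM and 48.7 against 114 CPM (-1.604 and -1.22), Smoc2 (-0.78 and -0.79) and Ptx3 (-2.08 and -1.28). Among the higher was Sparcl1, a matricellular glycoprotein, at 877 against 444 CPM and 950.5 against 507 CPM (0.98 and 0.91), and Gpc3 (0.58 and 0.87) was just short of 1.5-fold in the wild type. Mme and Hsd11b1 were detected together in 5.43% of Gdf10 high and 30.9% of Gdf10 zero cells in the wild type library and in 14.1% of Gdf10 high and 33% of Gdf10 zero cells in the knockout, beside 1 of 33 and 0 of 5 endothelial cells. Thinned shares were 1.1% and 13% in wild type and 1.47% and 9.7% in knockout cells.

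A list of genes that mark other FAP states of these libraries had 6 higher and 1 lower of 9 measured, but it was drawn up with these cells' clusters known, so that its direction is no independent evidence. Beside Comp, Clu and Cyp26b1 it held Apoe, the lipid carrier apolipoprotein E, at 870.2 against 328 CPM and 978 against 197 CPM (1.41 and 2.31). Penk, which encodes the precursor of the enkephalins, was at 215 against 92.2 CPM and 185 against 56 CPM (1.22 and 1.72). Inmt, an amine methyltransferase, was at 485 against 297 CPM in the wild type library and 416 against 30.4 CPM in the knockout (0.71 and 3.77). Dlk1 was the gene lower in both (-0.67 and -1.58), but it had a UMI in only 6 of 129 and 2 of 92 Gdf10 high cells. Those shares were 4.65% and 2.17%, beside 4.34% and 9.14% of zero cells. With 6 or more Gdf10 UMIs it stood at 30 and 27.7 CPM, near the 32.6 and 31.3 CPM of zero cells. Stmn4, below the level minimum in the knockout, was at 5.5 against 62 CPM and 0.87 against 10.4 CPM, and a cell with both Stmn4 and Inmt was seen in 2 wild type members and 1 knockout member. The 0.87 CPM lies under the 2.61 CPM that 3 counts make in knockout members.

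**Figure D3:**
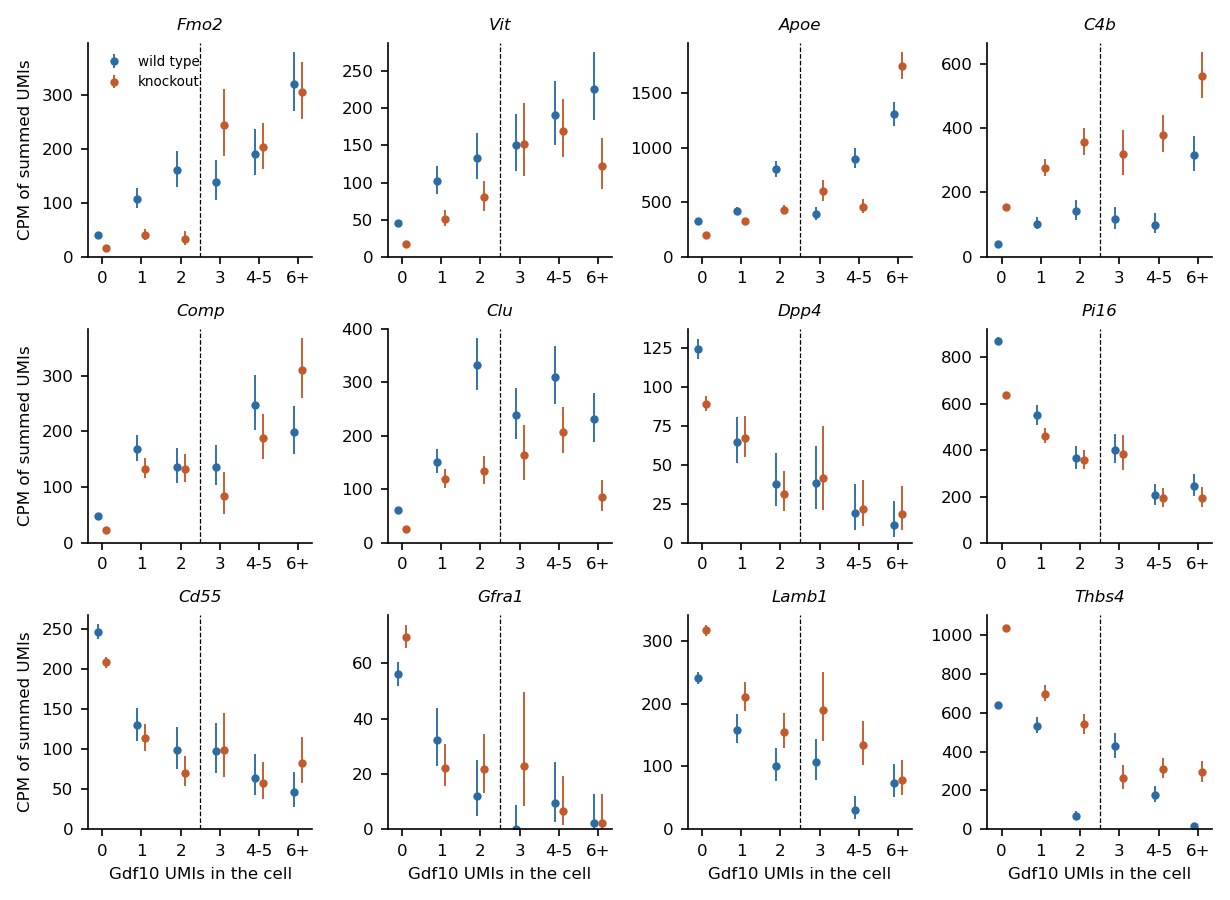
CPM of summed UMIs (y axis, linear) of 12 genes in cells grouped by their Gdf10 UMIs (x axis), wild type in blue and knockout in orange, with exact Poisson 95% intervals that cover counting error only. Cells right of the dashed line are the Gdf10 high cells. In both libraries Fmo2 and Vit are lowest, and Dpp4, Pi16 and Gfra1 highest, in the cells with 0 Gdf10 UMIs, while cells with 2 and with 3 Gdf10 UMIs follow no fixed order.

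Among cells grouped by their Gdf10 count, Fmo2 was highest and Dpp4 lowest where Gdf10 was highest. In cells with 0, 1, 2, 3, 4 to 5 and 6 or more Gdf10 UMIs, Fmo2 stood at 40.7, 108, 161, 138, 191 and 321 CPM in the wild type library and at 16.6, 40.7, 32.7, 244, 203 and 305 CPM in the knockout. In the same order Dpp4 stood at 124, 65.1, 38, 38.1, 19.1 and 11.6 CPM and at 89.4, 67.3, 31.5, 41.9, 22.1 and 18.5 CPM. Both genes stood apart from the zero cells already at 1 Gdf10 UMI, but the order was not even: Fmo2 was lower with 2 than with 1 Gdf10 UMI in the knockout. Median depths of these cells lay between 8133 and 10568.5 UMIs in the wild type library and between 9553 and 13508.5 in the other. Apoe was less regular: it was at 806 CPM with 2 and 391 CPM with 3 Gdf10 UMIs in the wild type, and highest, at 1308 and 1752 CPM, in cells with 6 or more. Clu in the knockout went from 207 CPM with 4 to 5 down to 85.5 CPM with 6 or more.

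The members were not uniform. In the 75 wild type members with an Fmo2 UMI Kitl stood at 151 CPM, and in the 54 without one at 55.3 CPM. In the knockout it stood at 190.4 CPM in 54 members with and 59.5 CPM in 38 without Fmo2. Vit in the knockout was split likewise, at 213 and 59.5 CPM, but in the wild type it was at 197 and 179 CPM. Apoe differed little by Fmo2 in the wild type, at 938 and 774 CPM, and in the knockout was lower in members with Fmo2, at 680.2 and 1383 CPM. Members with and without Comp had Kitl at 49.4 and 131 CPM in the wild type, and the order was the opposite in the knockout, at 191 and 100.1 CPM. Dpp4 was lower in members with Comp in both, at 6.58 against 27.9 CPM and 11.4 against 33.8 CPM. The values with Comp rest on only 2 Dpp4 UMIs in 32 wild type members and 5 in 35 knockout members. The wild type one is thus under 3 counts.

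Since Gdf10 is a TGF-beta superfamily ligand, the genes of that pathway were listed by role. Ligands of the BMP and GDF family had 0 higher and 0 lower of 4 measured besides Gdf10 past 1.5-fold in both libraries. Over all genes described the shares were 1.78% and 2.15%. In the wild type alone 3 of the 4 ligands were lower past 1.5-fold, beside 6.13% of all genes described. In the knockout 0 of 4 were lower, beside 4.72%. The ligand medians were -0.75 and -0.38. Bmp4 was at 77 against 143 CPM and 74 against 99 CPM (-0.89 and -0.42), and Bmp5 at 96.7 against 85.3 CPM and 58.3 against 70.9 CPM (0.18 and -0.28). Mstn, Nodal and Gdf5 had no UMI in any member. The latent binder Ltbp1 was lower, at 33.8 against 86.9 CPM and 39.2 against 72.6 CPM (-1.36 and -0.89), while Tgfb1, Tgfb2 and Tgfb3 stayed within 1.5-fold in each library.

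Of 9 receptors measured 1 was higher and 0 lower past 1.5-fold in both libraries, beside 1.78% and 2.15% of all genes described. Acvr2a, an activin type II receptor, was at 91.2 against 32.3 CPM in the wild type library and 135 against 60.2 CPM in the knockout, higher in Gdf10 high cells by 1.50 (95% interval 1.18 to 1.80) and 1.17 (95% interval 0.91 to 1.41) on the log2 scale. The type I receptors Acvr1, Bmpr1a and Acvrl1 and the type II receptor Bmpr2 were within 1.5-fold in both libraries. Of the secreted antagonists Chrdl1, a chordin-like BMP binder, was at 50.3 against 19.8 CPM and 61.8 against 18 CPM (1.34 and 1.78), and Nbl1 was at 957 against 620.2 CPM and 641 against 326 CPM (0.63 and 0.98). Follistatin (Fst), which binds activins, was at 319.9 against 197 CPM in the wild type but 157 against 153 CPM in the knockout (0.70 and 0.04). Grem1 and Sostdc1 had no UMI in the members.

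Among SMADs and response genes the Id genes stood apart, transcriptional inhibitors that BMP signals are known to induce. Id3 was at 653 against 292 CPM in the wild type library and 585 against 260.2 CPM in the knockout (1.16 and 1.17), and Id2 at 145 against 38 CPM and 121 against 61.2 CPM (1.93 and 0.98). Id1, below the level minimum, was at 48.7 against 11.7 CPM and 18.3 against 7.9 CPM, log2 ratios of 2.06 (95% interval 1.598 to 2.50) and 1.21 (95% interval 0.47 to 1.89). The SMAD genes Smad1, Smad3, Smad4, Smad5 and Smad7 were within 1.5-fold in both libraries. In all, 2 higher and 0 lower of 12 passed 1.5-fold in both, beside 1.78% and 2.15% of all genes described.

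Trophic factors for muscle and nerve had 2 higher and 1 lower of 11 past 1.5-fold in both libraries. Over all genes described the shares were 1.78% and 2.15%. Beside Angpt1, Fgf7 was higher, at 64.5 against 36.7 CPM and 111 against 58 CPM (0.81 and 0.94). Igf1, insulin-like growth factor, was at 622 against 487 CPM and 782 against 525 CPM (0.35 and 0.57), within 1.5-fold. Rspo1, an enhancer of Wnt signals below the level minimum, was at 24.4 against 3.35 CPM and 17.4 against 3.34 CPM (2.86 and 2.38). Of the Wnt and Hedgehog modulators Sfrp1 was higher in both (1.12 and 0.73), and Hhip, a Hedgehog antagonist below the level minimum, was at 29.1 against 4.49 CPM and 27 against 1.86 CPM, log2 ratios of 2.70 (95% interval 2.04 to 3.33) and 3.86 (95% interval 3.08 to 4.64). Dkk3, likewise low, was at 28.3 against 6.87 CPM and 32.2 against 8.09 CPM.

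Over all genes described 1.78% were higher and 2.15% lower past 1.5-fold in both libraries. Of 14 basement membrane genes 0 were higher and 9 lower by that rule, with medians of -0.79 in the wild type library and -0.82 in the knockout. The laminin chains Lamb1, at 70.7 against 241 CPM and 126 against 317 CPM (-1.77 and -1.33), Lamc1 (-1.19 and -0.91), Lama4 (-0.996 and -1.13) and Lama2 (-0.91 and -0.72) were among them. Nidogen (Nid1), which links laminin to collagen IV, was at 580.1 against 1198 CPM and 659 against 1349 CPM (-1.05 and -1.03). The collagen IV genes Col4a1 (-0.41 and -0.50) and Col4a2 (-0.37 and -0.50) were lower by less than 1.5-fold. Fibrillar and associated collagens had 0 higher and 2 lower of 13, Col5a3 (-0.84 and -0.81) and Col6a6 (-1.69 and -1.11), while Col1a1 was at 2620.0 against 2241 CPM and 3388 against 4650.0 CPM (0.23 and -0.46). Of 26 proteoglycans and glycoproteins 3 were higher and 2 lower: Fbln1, Matn2 (0.86 and 1.02) and the elastin gene Eln (0.998 and 0.89) were on the high side and Thbs4 and Fbn1 (-1.26 and -0.67) on the low side. Postn, a matrix protein of activated fibroblasts, was at 153 against 377 CPM and 263 against 757 CPM (-1.30 and -1.53). Its wild type ratio was -0.69 without the deepest 2% of cells and its knockout ratio -0.84 with members from 2 Gdf10 UMIs, both under 2-fold, and wild type members with 3 Gdf10 UMIs stood at 384 CPM, close to the zero cells.

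Complement genes had 4 higher and 1 lower of 10 past 1.5-fold in both libraries, beside 1.78% and 2.15% of all genes described. C4b, of the classical pathway, was at 179 against 40.9 CPM in the wild type library and 434 against 154 CPM in the knockout, log2 ratios of 2.13 (95% interval 1.90 to 2.36) and 1.49 (95% interval 1.35 to 1.63). C2, which pairs with it in the C3 convertase, was at 110.0 against 22.3 CPM and 126 against 72.9 CPM (2.30 and 0.79), and Clu, which restrains the membrane attack complex, was given above. In the knockout C2 was at 72.3 and 90.4 CPM in members with 3 and with 4 to 5 Gdf10 UMIs, near the zero cells. With 6 or more it was at 196 CPM. The gene lower in both was Cd55. C3 was within 1.5-fold, at 1355 against 1338 CPM and 2459.8 against 2043 CPM. Metabolic enzymes of the flavin monooxygenase and drug metabolism list had 5 higher and 2 lower of 14, with Fmo1 (0.74 and 0.85) and Cyp1b1 (1.16 and 0.67) higher and Ces1d (-1.45 and -0.95) and Aldh1a2 (-0.61 and -0.99) lower. Aldh1a2 was uneven among the members. With 6 or more Gdf10 UMIs it stood at 39.3 and 129 CPM, above the 32.3 and 107 CPM of zero cells. With 4 to 5 it stood at 4.76 and 13.2 CPM.

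Chemokines and cytokines had 2 higher and 2 lower of 11 past 1.5-fold in both libraries, beside 1.78% and 2.15% of all genes described. Cxcl12, which retains stem cells and leukocytes through CXCR4, was at 573 against 265 CPM and 679 against 312 CPM, log2 ratios of 1.11 (95% interval 0.995 to 1.23) and 1.12 (95% interval 1.01 to 1.23), and Tnfsf13b (0.92 and 1.03) was the other gene higher in both. Ccl2 (-2.98 and -0.90) and Ccl7 (-0.79 and -1.40) were lower. Ccl2 was uneven among the knockout members, at 7.61, 355 and 11.6 CPM with 3, 4 to 5 and 6 or more Gdf10 UMIs. The knockout zero cells stood at 273 CPM. Adipogenic regulators had 0 higher and 1 lower of 9, the gene being Ebf3 (-0.78 and -0.72), and class I MHC and interferon response genes had none past 1.5-fold in both libraries. In the knockout alone 4 of 10 interferon and 3 of 9 class I MHC genes were lower past 1.5-fold, beside 4.72% of all genes described. Their medians were -0.49 and -0.47 there. In the wild type the medians were 0.08 and -0.19, with 1 gene higher and 0 lower in each list. Matrix proteases and inhibitors had 0 higher and 3 lower of 19: Plau, the urokinase plasminogen activator (-1.63 and -1.19), Plat (-0.79 and -0.76) and Adamts5 (-1.21 and -1.14). Of 19 immediate early genes 2 were higher and 0 lower in both libraries, namely Fosb (0.67 and 1.22) and Nr4a1 (0.71 and 1.63). By library 2 were higher and 2 lower in the wild type and 7 and 1 in the knockout, with medians of -0.16 and 0.42. Over all genes described 3.77% were higher and 6.13% lower in the wild type, and 3.73% and 4.72% in the knockout. Of 9 lipid handling genes Apoe alone was past 1.5-fold in both.

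**Figure D4:**
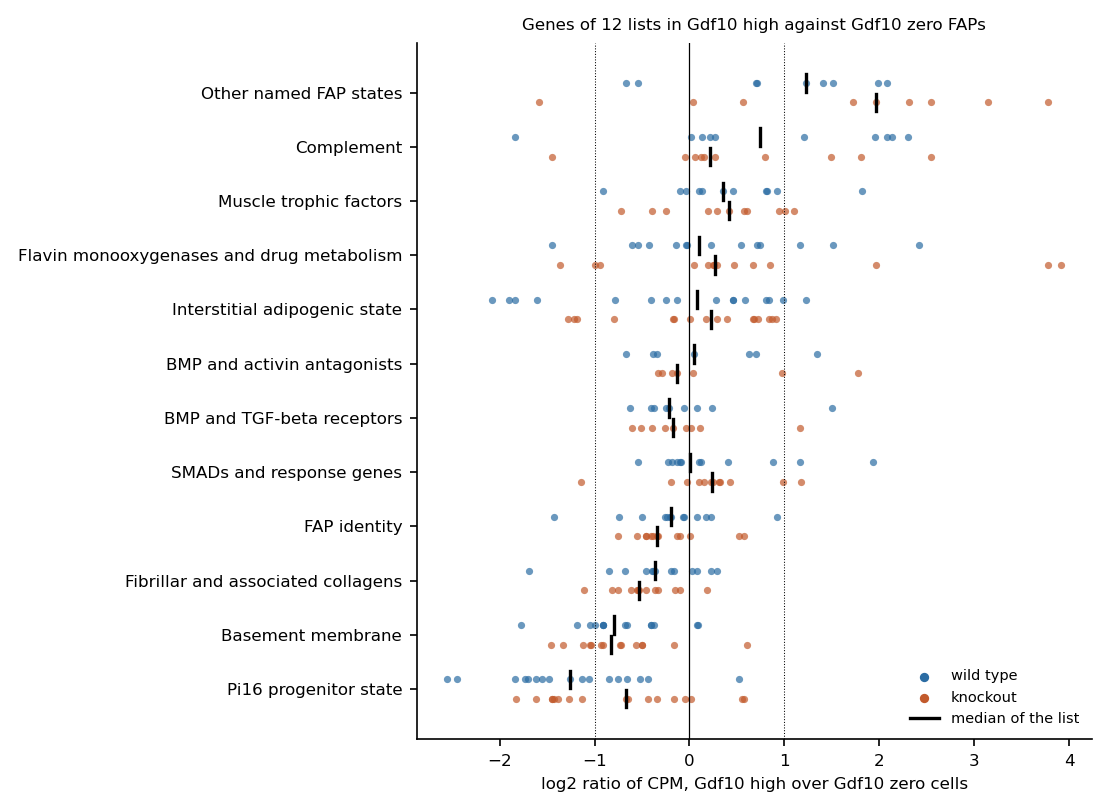
Log2 ratio of CPM, Gdf10 high over Gdf10 zero cells (x axis), for the measured genes of 12 gene lists (rows), 1 point per gene, wild type in blue and knockout in orange, with black bars at each list's median and dotted lines at 2-fold. The Pi16 progenitor and basement membrane lists lie mostly left of 0 in both libraries, and the medians of the FAP identity list are -0.19 and -0.35.

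Knockout and wild type members were then set side by side. Of 5983 genes described in Gdf10 high cells, 139 (2.32%) were higher and 73 (1.22%) lower in the knockout, and of 5928 in Gdf10 zero cells 119 (2.01%) were higher and 69 (1.16%) lower. With ratios scaled to a median log2 ratio of 0, which moved them by 0.09, the split in Gdf10 high cells was 108 higher and 93 lower. By the 1.5-fold rule 10.1% of genes were higher and 4.9% lower in Gdf10 high cells, and 5.38% and 3.88% in Gdf10 zero cells. The high class summed 1272146 UMIs in the wild type library and 1148898 in the knockout, and the zero class 11355330 and 15576763, so that ratios in the high class are less precise. Both contrasts come from the same 2 libraries and are given side by side without a test between them.

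The genes of activated, matrix-producing FAPs named here had smaller ratios of knockout over wild type in Gdf10 high than in Gdf10 zero cells, a difference that was not tested. Mmp3, a matrix metalloprotease, was at 292 CPM in knockout and 177 CPM in wild type members, against 385 and 45.1 CPM in Gdf10 zero cells. Its log2 ratio of knockout over wild type was 0.73 (95% interval 0.48 to 0.98) in Gdf10 high and 3.09 (95% interval 2.96 to 3.23) in Gdf10 zero cells. For Cpxm1, a carboxypeptidase-like matrix protein, it was 0.51 (95% interval 0.25 to 0.76) and 2.31 (95% interval 2.22 to 2.40). For Timp1, the metalloprotease inhibitor, it was 1.40 and 2.39, and for Col3a1 0.79 and 1.36. Over the 7 genes of the activated matrix list described in both classes the median was 0.78 in Gdf10 high and 1.87 in Gdf10 zero cells, beside 0.10 in Gdf10 high and 0.06 in Gdf10 zero cells over all 5629 genes described in both. Cells with both Cpxm1 and C1qtnf3 made up 6.52% of Gdf10 high and 18.7% of Gdf10 zero cells in the knockout and 3.1% of Gdf10 high and 2.84% of Gdf10 zero cells in the wild type, and after thinning 0.573% and 6.16% and 0.435% and 0.665%, with none in the endothelial cells.

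Most interferon and antigen presentation genes named here had the same order, also not tested. Isg15, an interferon-induced ubiquitin-like modifier, was at 47 and 36.9 CPM in knockout and wild type members and at 121 and 21.8 CPM in Gdf10 zero cells, log2 ratios of 0.35 in Gdf10 high and 2.47 in Gdf10 zero cells. H2-K1, a class I heavy chain, had log2 ratios of 0.34 in Gdf10 high and 1.15 in Gdf10 zero cells, and B2m, its light chain, of 0.85 in Gdf10 high and 1.25 in Gdf10 zero cells. Iigp1, an interferon-induced GTPase, was an exception, at 3.17 in Gdf10 high and 3.18 in Gdf10 zero cells. Of 11 interferon genes described in both classes 5 were at least 1.5-fold higher in the knockout in Gdf10 high and 8 in Gdf10 zero cells, and of 10 class I MHC genes 2 and 6. Of all 5629 genes described in both classes, 547 and 283 were. Cxcl9, an interferon-induced chemokine, had a UMI in 6 of 92 cells, 6.52%, exact interval 2.43 to 13.7%, in the knockout, beside 25.3% of Gdf10 zero cells, and in 0 of 129 wild type members, which at 3 counts for a count of 0 allows a share of up to 2.33%. Of the wild type Gdf10 zero cells 1.59% and of the wild type endothelial cells 3 of 33 (9.09%) held one. Thinned knockout shares were 2.32% and 14.5% in Gdf10 high and zero cells. The macrophage markers given above were also lower in the knockout members than in the knockout zero cells, and their part in these values was not tested.

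Inmt and Fmo2 stood at similar levels in the members of both libraries and at lower levels in knockout than in wild type Gdf10 zero cells. Inmt was at 416 CPM in knockout and 485 CPM in wild type members, a log2 ratio of -0.22 (95% interval -0.40 to -0.05), and at 30.4 and 297 CPM in Gdf10 zero cells, -3.29 (95% interval -3.43 to -3.15). It had a UMI in 43 of 92 knockout and 89 of 129 wild type members, and in 3 of 33 wild type and 0 of 5 knockout endothelial cells. Fmo2 had log2 ratios of 0.20 in Gdf10 high and -1.29 in Gdf10 zero cells, Comp of 0.11 in Gdf10 high and -1.04 in Gdf10 zero cells, Vit of -0.36 in Gdf10 high and -1.43 in Gdf10 zero cells and Cpe of -1.09 in Gdf10 high and -2.21 in Gdf10 zero cells. Of these genes Cpe was at least 2-fold lower in the knockout members.

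Immediate early genes, which are induced within minutes of a stimulus, had a median log2 ratio of -0.11 in Gdf10 high and -0.88 in Gdf10 zero cells. Of 19 such genes 4 and 13 were at least 1.5-fold lower in the knockout, and 2 and 0 higher. Of all 5629 genes described in both classes, 259 and 209 were lower and 547 and 283 higher. Ier2 was at -0.48 in Gdf10 high and -1.43 in Gdf10 zero cells, and Nr4a1, a nuclear receptor, at 0.97 in Gdf10 high and 0.04 in Gdf10 zero cells. The glucocorticoid and stress list had medians of -0.25 in Gdf10 high and -0.48 in Gdf10 zero cells over 16 genes, and 3 of its genes that glucocorticoids are known to induce were lower in the knockout in both classes. Tsc22d3 (GILZ) was at 296 CPM in knockout and 1027 CPM in wild type members, log2 ratios of -1.79 in Gdf10 high and -1.98 in Gdf10 zero cells. Fkbp5, a chaperone of the glucocorticoid receptor, was at -1.65 in Gdf10 high and -1.70 in Gdf10 zero cells, and Zbtb16 at -1.81 in Gdf10 high and -2.32 in Gdf10 zero cells.

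The 12 genes with the largest ratio of knockout over wild type in the members were Ccl2, Iigp1, Thbs1, Has1, Hbb-bs, Gda, Lgmn, Sbno2, Ndnf, Rem1, Tpm3-rs7 and Bc1. Thbs1, a thrombospondin, was at 234 and 29.1 CPM in knockout and wild type members, log2 ratios of 3.01 in Gdf10 high and 0.50 in Gdf10 zero cells, and Has1 of 2.61 in Gdf10 high and 0.29 in Gdf10 zero cells. In cells of 4000 to 16000 UMIs the Thbs1 ratio in the members was 1.06. Lgmn, the lysosomal protease legumain, had similar ratios, at 2.18 in Gdf10 high and 2.36 in Gdf10 zero cells. Ccl2, a monocyte-attracting chemokine, was at 146 and 5.5 CPM, 4.73 (95% interval 3.66 to 6.07), but in 7 knockout and 5 wild type members only, and the ratio turned to -2.19 in cells of 4000 to 16000 UMIs. Tpm3-rs7 and Bc1 have close copies or repeats, so that their counts are uncertain, and Hbb-bs is a globin gene of red cells seen in 5 knockout and 4 wild type members, with a log2 ratio between -0.20 and 5.54 over the alternatives.

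The 12 lowest were Gm9780, H19, Zbtb16, Tsc22d3, Plp2, Hpgd, Trf, Nmb, Sult1a1, Fkbp5, Adrm1 and Rpl10. Nmb, the peptide neuromedin B, was at 43.5 and 143 CPM in knockout and wild type members, log2 ratios of -1.72 in Gdf10 high and -1.61 in Gdf10 zero cells. Hpgd, which inactivates prostaglandins, was at -1.75 in Gdf10 high and 0.41 in Gdf10 zero cells, and so lower in the knockout members but not in the zero cells. Sult1a1, a sulfotransferase, had log2 ratios of -1.70 in Gdf10 high and -1.78 in Gdf10 zero cells. The imprinted RNA H19 was at 30.5 and 118 CPM, but in 8 and 10 members only, and its log2 ratio of -1.95 turned to 2.91 without cells holding other cell markers and to 2.63 without Dpp4 or Pi16 cells. Rpl10, a ribosomal protein gene with many near copies, was at -1.63 in Gdf10 high and -1.82 in Gdf10 zero cells, and Gm9780 is a predicted gene, so that both are uncertain.

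**Figure D5:**
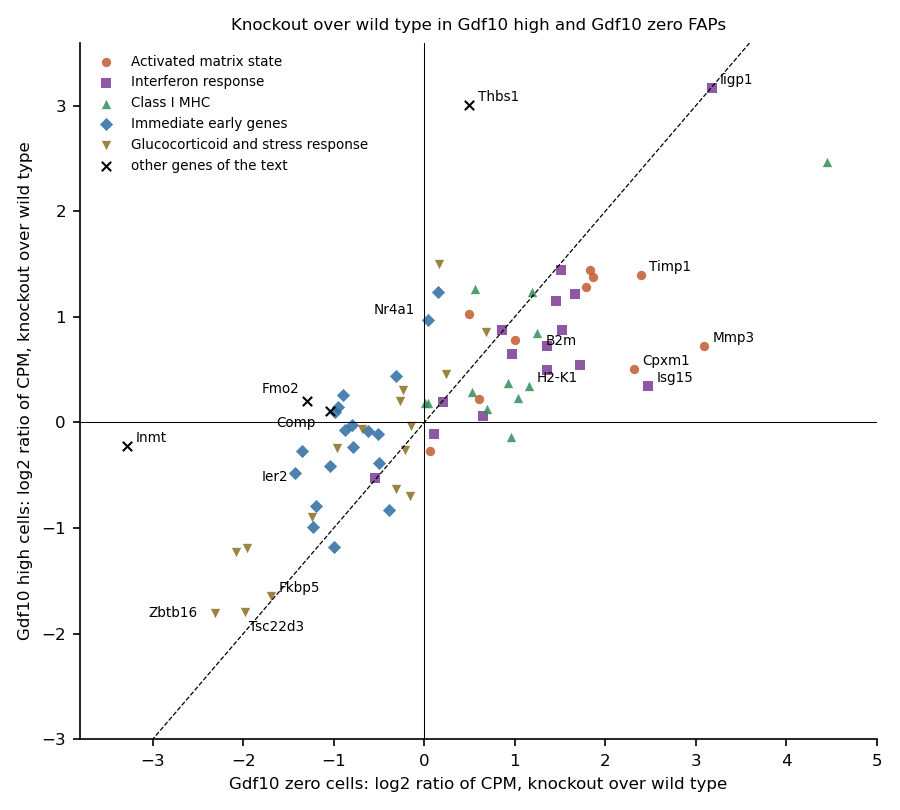
Log2 ratio of CPM, knockout over wild type, in Gdf10 zero cells (x axis) against Gdf10 high cells (y axis) for genes of 5 lists described in either class and 4 other genes named in the text, 1 point per gene, with the dashed line at equal ratios. Mmp3, Cpxm1 and Isg15 lie right of the line, Inmt far left of it near 0 on the y axis, and Tsc22d3, Fkbp5 and Iigp1 close to it.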

How the data were processed

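The authors deposited raw UMI counts for each gene and cell, with 1 matrix a group. Cell Ranger 3.0.0, Seurat and mm10 are named in the submitters' processing notes, and software version 3.0.2 stands in the matrix headers, per the file headers. How empty droplets were removed was not stated there. The sort gated out doublets, per the labels' protocols. No doublet caller was run, and results without the deepest 2% of cells are an alternative.

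UMIs were summed over the cells of a class and scaled to CPM. Log2 ratios have exact conditional binomial intervals, shares exact Clopper-Pearson intervals and sums exact Poisson intervals, computed with Python 3.11.15, numpy 2.4.6, scipy 1.17.1 and pandas 2.3.3. Thinned shares are exact hypergeometric expectations. The lowest total was 501 UMIs in the wild type library and 500 in the knockout matrix. A count of 0 allows up to 3 counts, 2.36 CPM in wild type and 2.61 CPM in knockout members. The calculation was tested on simulated data.

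Named were genes of 38 lists, the 15 genes with the largest ratio each way in the library nearer 0 with intervals without 0 in both, and the 12 each way between libraries. Of 494 list genes 3 were not matched by symbol. Some genes within these rules are not reported here. The members and lists were chosen with earlier results of these data known. All 521 named genes matched GENCODE M21 by gene identifier.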

Additional observations from a re-analysis of the deposited data

Results flagged for a closer look

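Several genes differed from the Gdf10 zero cells in opposite directions in the wild type library and the knockout, by at least 1.5-fold each way. With 1 library per group the difference between libraries was not tested. Cpxm1 had a log2 ratio of Gdf10 high over zero of 0.85 in the wild type library and -0.95 in the knockout, and Isg15 of 0.76 and -1.36. For both the level in knockout zero cells was the highest of the 4 classes, 497 CPM for Cpxm1 and 121 CPM for Isg15. Thbs1 had ratios of -1.84 and 0.68, and Il33, an alarmin cytokine, of -0.64 and 0.69, each with its highest level in knockout members, 234 and 229 CPM. H19 had ratios of 2.47 and -1.57, with its UMIs in 10 wild type and 8 knockout members. Hbb-bs had ratios of -6.13 and 1.91, and the erythroid markers summed to 1067 CPM in wild type zero cells against 13.4, 62.7 and 19.8 CPM in wild type members, knockout members and knockout zero cells.

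Gdf10 also appeared in cells left out for want of a Pdgfra UMI. Of 264 such filtered wild type cells 16 held at least 3 Gdf10 UMIs, and of 149 knockout cells 6 did. Their median depths were 5161 and 4347 UMIs, below those of the members. None of the endothelial or immune cells without Pdgfra held as many.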

How the results depend on the processing

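No paired analysis was possible because each group is 1 pooled matrix, and for the same reason no replicate could be left out. Of 144 alternative values of the counts and shares 45 moved, by more than 1.5 times for a count or out of its interval for a share. Counts of genes at least 2-fold in Gdf10 high over zero cells are given in the order wild type higher and lower, knockout higher and lower, both higher and lower, and were 79, 93, 69, 63, 44 and 33. With a level minimum of 50 CPM they were 43, 50, 36, 30, 23 and 17, and with 5 CPM 228, 273, 209, 227, 110 and 75. Knockout over wild type counts, 139 and 73 in Gdf10 high and 119 and 69 in Gdf10 zero cells, became 49, 35, 58 and 44 at 50 CPM and 492, 348, 274 and 138 at 5 CPM, since the minimum sets how many genes are described. With members from 2 Gdf10 UMIs the shares were 12.9% and 10.03%, wild type lower 61, knockout higher 42 and both higher 28. From 5 UMIs the shares were 4.37% and 3.62%, wild type lower 192, knockout lower 95, both lower 52, and knockout over wild type 331 higher and 125 lower in 67 and 52 cells. In cells of 4000 to 16000 UMIs knockout higher was 110, knockout lower 135 and both lower 62. With equal weight per cell both lower was 51. Thinning to 3000 UMIs gave shares of 3.12% and 1.78%. Without cells holding Dpp4 or Pi16, an alternative chosen after seeing the data that leaves 53 and 23 members, wild type lower was 198, knockout higher 245, knockout lower 330, both lower 59, knockout over wild type 641 and 359 in Gdf10 high cells, and 123 lower in Gdf10 zero cells. Beyond the level minimum and the thinning, which set what is counted, the cause was not tested. Of 920 alternative values of single genes 6 reversed and 899 stayed at least 2-fold the same way. The genes were picked for large ratios in these same data, so that staying past 2-fold is no independent check. Values that moved out of their main interval without reversing numbered 40 of 80 without Dpp4 or Pi16 cells. They numbered 31 of 84 in cells of 4000 to 16000 UMIs, 30 of 84 from 5 Gdf10 UMIs, and 0 of 84 with the median log2 ratio set to 0. Ccl2 turned to -2.19 in cells of 4000 to 16000 UMIs and to -0.54 without Dpp4 or Pi16 cells, H19 to 2.91 without cells holding other cell markers and to 2.63 without Dpp4 or Pi16 cells, Hbb-bs to -0.20 with no cell filter, and Wfdc1 in the wild type to -0.27 without Dpp4 or Pi16 cells. The Ccl2 and H19 values rest on between 1 and 32 UMIs in a class. Dpp4 and Pi16 themselves have no value in the last setting.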
